A study of Mus musculus with 48 samples.

Results

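8 genes that build and regulate lipid droplets were examined, out of 47480 gene symbols in the count tables: the droplet coat genes Plin2, Plin3, Plin4 and Plin5, the triglyceride lipase gene Pnpla2, its activator Abhd5, and its inhibitors G0s2 and Hilpda. They were chosen by name, for their role, with their response to stretching already known. The difference that stretching made at each of 3 times is therefore described here with its spread and without a test. Tests are kept for differences between the 2 stages of differentiation and between times, both in non-stretched cells, and for differences between experiments. The non-stretched libraries are also the reference of the known stretch differences, so their p-values are not free of the choice of genes.

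C2C12 cells, an immortal mouse myoblast line that fuses into myotubes when serum is withdrawn, were grown on flexible collagen-coated membranes. Stretched cells received cyclic equibiaxial stretch from a Flexcell device, in which the membrane is pulled equally in all directions, and non-stretched cells stayed on the same kind of membrane without it. RNA was collected at once after 1, 3 or 6 h from myoblasts and from differentiated cells (labelled myotubes), giving 12 groups of 4 libraries and 48 libraries in all, of 48447318 to 77080730 counts each. All groups came from this 1 cell line and no other treatment was given. The titles give each library a code such as B27, read here as its experiment, and do not name separate cultures. The p-values therefore measure the spread between these libraries. The paper describes 3 experiments for the 4 samples of differentiated cells, and of these groups only that stretched for 1 h holds 3 codes.

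A lipid droplet is a core of neutral lipid, mostly triglyceride and sterol ester, inside a single layer of phospholipid that is covered by proteins. Perilipins coat that surface and control the access of lipases, and different family members prevail in different tissues, with PLIN5 best known from oxidative muscle. ATGL, the product of Pnpla2, takes the initial fatty acid off triglyceride, is switched on by binding CGI-58 (Abhd5), and is held back by G0S2 and by HILPDA, a small hypoxia-inducible droplet protein.

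The labelled cell types were checked against markers. The 8 markers of differentiated muscle summed to between 7.04 and 17 CPM (counts per 1000000 counts of the library) in myoblast libraries and to between 10500 and 13000 CPM in differentiated ones. The 4 myoblast markers were not higher in myoblasts as a sum, at 886 to 1110 CPM against 2980 to 3520 CPM in differentiated libraries. Of them Myf5 was lower in differentiated cells (means of 47.1 and 22.6 CPM). Des (821 and 3050 CPM), Myod1 (103 and 160 CPM) and Pax7 (26.9 and 32.7 CPM) were higher there. Of the 10 adipocyte markers, Adipoq, Plin1, Cidec, Lep, Cfd, Retn and Adrb3 had at most 4 counts in any library, whereas Cebpa and Pparg, which muscle cells also make, had at least 218 and Fabp4 at most 9. At 6 h the 10 summed to 21.3 to 24.5 CPM without and 20.5 to 21.9 CPM with stretch in myoblasts, and to 25.6 to 29.3 and 21.9 to 23.3 CPM in differentiated cells. These sums were mostly Cebpa and Pparg. In myoblasts at 6 h Cebpa had means of 6.16 CPM without and 4.07 CPM with stretch, and Pparg of 16.5 and 17.2 CPM. The part of adipocytes in the results was not tested. The 7 macrophage markers summed to 5.27 to 10.2 CPM, and of them Adgre1 and Tyrobp had 0 counts in all 48 libraries. Cd14 made up the largest part of the sum, with a myoblast mean of 7.77 CPM and a mean of 4.55 CPM after differentiation. Cd68 followed in myoblasts, at a mean of 1.15 CPM, and Itgam after differentiation, at 1.25 CPM. Itgam had at most 3 counts in any myoblast library. Csf1r and Ptprc had means of at most 0.2 CPM in either stage. The part of macrophages was not tested either. In bulk RNA, fewer cells of a type and less RNA per cell cannot be told apart.

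One library stood apart before any comparison. Replicate 4 of the differentiated cells stretched for 1 h belongs to experiment B17, which holds no other library, and it lay outside the range of the 3 remaining libraries of its group for all 7 of the genes with enough counts to be tested. It was the lowest for Plin2, Plin3, Plin4, Pnpla2 and Abhd5 and the highest for G0s2 and Hilpda. Relative to its level Plin4 had the widest gap, at 1.35 CPM against 4.34 to 4.9 CPM in the others. With this library the log2 fold changes of the 7 genes at 1 h in differentiated cells ran from -0.23 (Plin4) to 0.06 (Hilpda), and without it from -0.04 (G0s2) to 0.05 (Plin4 and Abhd5).

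The upstream sequences of the genes whose levels moved most are shown because Plin4, Plin2 and Abhd5 were all higher after 6 h of stretching in both stages and G0s2 was lower in differentiated cells. Each is the 250 bases before the RefSeq transcript start in GRCm38.p6, read 5′ to 3′ on the gene's own strand. Plin4 lies on chr17:56109783-56110032 (minus strand), Plin2 on chr4:86670060-86670309 (minus), Abhd5 on chr9:122351366-122351615 (plus) and G0s2 on chr1:193273189-193273438 (minus). Capitals mark every match, on either strand, to 8 motifs. These were the E-box CACGTG, the core of the hypoxia response element ACGTG, which every E-box of these letters also contains, and the direct repeat AGGTCANAGGTCA that PPAR and RXR bind. The AP-1 motif was written TGANTCA, the cyclic AMP response element TGACGTCA, and the GC box GGGCGG. The CCAAT box was searched by its own letters and the TATA box as the letters TATAAA.
Plin4: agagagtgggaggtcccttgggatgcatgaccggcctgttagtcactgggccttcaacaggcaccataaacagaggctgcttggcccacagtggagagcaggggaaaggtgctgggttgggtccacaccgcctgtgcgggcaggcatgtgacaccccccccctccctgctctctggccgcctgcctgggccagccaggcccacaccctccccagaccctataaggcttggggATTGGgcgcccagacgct
Plin2: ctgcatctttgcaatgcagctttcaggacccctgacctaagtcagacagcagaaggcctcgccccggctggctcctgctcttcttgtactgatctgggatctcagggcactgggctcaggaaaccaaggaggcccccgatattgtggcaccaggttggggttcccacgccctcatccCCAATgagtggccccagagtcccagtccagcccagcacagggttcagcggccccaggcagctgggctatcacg
Abhd5: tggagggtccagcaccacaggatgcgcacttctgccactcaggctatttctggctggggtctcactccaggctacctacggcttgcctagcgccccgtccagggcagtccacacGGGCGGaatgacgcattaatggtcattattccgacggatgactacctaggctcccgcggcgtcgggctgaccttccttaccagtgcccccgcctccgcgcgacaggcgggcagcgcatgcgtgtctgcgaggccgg
G0s2: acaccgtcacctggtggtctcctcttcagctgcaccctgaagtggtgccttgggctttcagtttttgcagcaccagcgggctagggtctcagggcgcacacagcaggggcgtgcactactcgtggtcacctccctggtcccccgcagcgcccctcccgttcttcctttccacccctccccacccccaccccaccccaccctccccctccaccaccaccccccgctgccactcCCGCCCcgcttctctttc

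In these windows Plin4 and Plin2 each held a CCAAT match, starting 18 and 73 bases before the transcript start, and Abhd5 and G0s2 each held a GC box, 136 and 18 bases before it. Of 32851 mouse promoters read over the same 250 bases, 33.8% held CCAAT and 32.7% held GGGCGG. None of the 10 windows of the 8 genes held AGGTCANAGGTCA, which 0.0335% of all promoters hold. ACGTG was found in 1 of the 10, a second start of Hilpda, against 16.6% of all promoters.

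Plin4 encodes the perilipin with the longest repeat domain of the family, and 24.6% of the 31-base stretches of its longest coding transcript occurred more than once within it. The gene spans chr17:56100591-56109803 on the minus strand of mm10, 1797 bases from Plin5 and 167672 bases from Plin3. Its last 17 bases overlap the end of Hdgfl2 on the opposite strand, and the libraries were made with a stranded kit. None of its 31-base stretches occurs in another annotated gene, so at that length no read of an annotated transcript had to be divided between Plin4 and another gene.

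In myoblasts after 6 h, Plin4 stood at 7.61, 7.9, 6.06 and 7.27 CPM in the 4 non-stretched libraries and at 21.6, 18.4, 23.5 and 19.9 CPM in the 4 stretched libraries. The lowest stretched library was more than double the highest non-stretched one. The means were 7.21 CPM ± 0.807 and 20.9 CPM ± 2.16 (SD, n = 4), which is 2.94-fold or 1.55 on the log2 scale (SE 0.0937). The log2 ratio was 1.36 within experiment B27 and 1.7 within experiment B31.

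No such separation was seen earlier in myoblasts. Plin4 was at 5.17, 4.49, 5.2 and 5.91 CPM without stretch and at 5.86, 5.01, 5.86 and 4.7 CPM with it at 1 h, a log2 fold change of 0.04 (SE 0.0995). At 3 h the values were 5.96, 6.43, 7.5 and 7.21 CPM without and 4.97, 6.27, 6.47 and 7.01 CPM with stretch, a log2 fold change of -0.15 (SE 0.105). The groups overlapped at both times.

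In differentiated cells the sign of the Plin4 difference turned between 3 h and 6 h. At 3 h the stretched libraries held 3.41, 3.73, 3.17 and 3.39 CPM and the non-stretched ones 5.07, 4.39, 4.49 and 4.24 CPM, so that every stretched library was lower (log2 fold change -0.41, SE 0.0832). At 6 h they held 7.48, 7.83, 7.92 and 6.98 CPM against 5.75, 5.93, 4.61 and 6.41 CPM, so that every stretched library was higher (0.41, SE 0.0963). At 1 h the difference was -0.23 (SE 0.304), which rested on replicate 4 and became 0.05 without it.

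Plin2 encodes the perilipin found on droplets of most cell types, whose protein is degraded when it has no droplet to bind. It had the highest level of the 8 genes per length of transcript, with 66.1 CPM per kilobase ± 3.06 in non-stretched myoblasts and 49.9 ± 1.74 in non-stretched differentiated cells (SD, n = 12). In myoblasts at 6 h it was at 124, 127, 121 and 127 CPM without stretch and at 160, 149, 176 and 152 CPM with it. Stretched libraries were all above the non-stretched ones, by 29.3% (log2 fold change 0.37, SE 0.0506). In differentiated cells at 6 h the non-stretched libraries held 98.6, 98.3, 92 and 97.7 CPM and the stretched ones 130, 117, 127 and 119 CPM. The groups again did not overlap, and the difference of 27.1% (0.35, SE 0.0405) was close in size to that in myoblasts. At 1 h and 3 h the groups overlapped in both stages, with log2 fold changes between -0.11 and 0.07.

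Plin3 encodes a cytosolic perilipin that moves to newly formed droplets. Its stretched libraries were below the non-stretched ones at 3 h in both stages, with 76.6 to 80.8 against 81.4 to 86.9 CPM in myoblasts and 90.4 to 93.5 against 105 to 108 CPM in differentiated cells. The log2 fold changes were -0.12 (SE 0.0275) and -0.19 (SE 0.0244). At 1 h in myoblasts the groups were also separate (-0.09, SE 0.0367), and at 6 h they overlapped in both stages.

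Plin5, which couples droplets to mitochondria in oxidative muscle, was close to absent from these cultures. It had 0 to 5 counts in each library and 0 counts in 17 of 48, and a count of 0 allows up to 3 counts, or 0.0389 to 0.0619 CPM at these depths. It passed no filter on low counts, and no fold change is given for it. The remaining 7 genes were tested in every comparison.

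**Figure D1:**
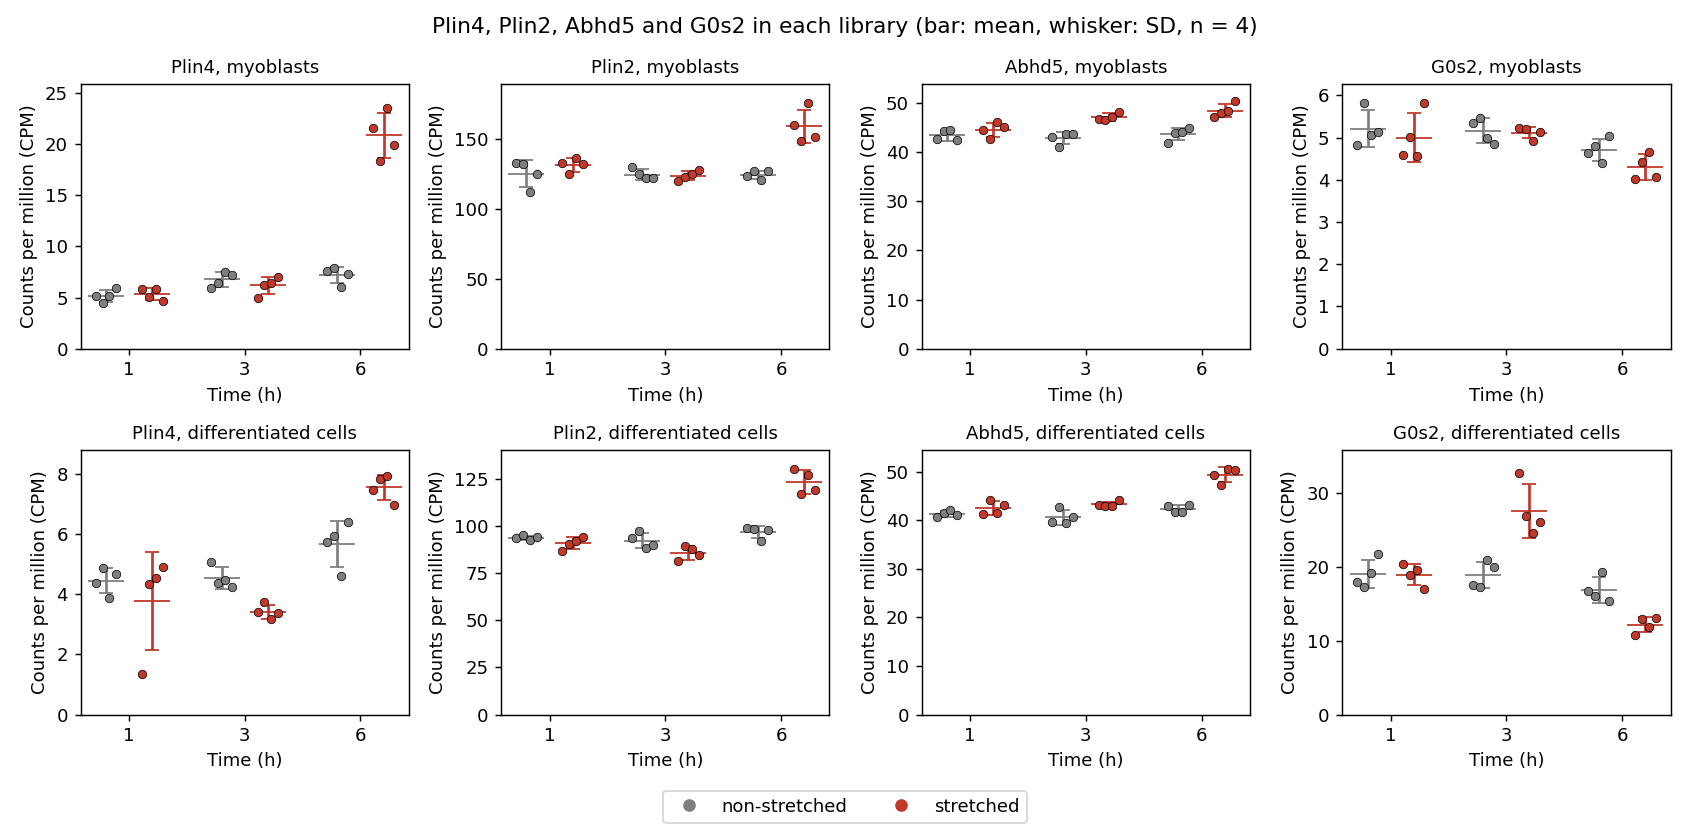
CPM (y axis, starting at 0) of Plin4, Plin2, Abhd5 and G0s2 (columns) in myoblasts (top) and differentiated cells (bottom) by hours in the experiment (x axis), with 1 point for each of 4 libraries a group, the mean as a horizontal bar and the SD as a whisker. Stretched myoblasts at 6 h stand between 18.4 and 23.5 CPM for Plin4, above all other myoblast libraries, and stretched differentiated cells are highest for G0s2 at 3 h and lowest at 6 h.

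Pnpla2, the lipase gene itself, showed the smallest differences of the genes tested. Its group means lay between 24.2 and 28 CPM in myoblasts and between 34.9 and 38 CPM in differentiated cells, and stretched and non-stretched libraries overlapped at every time in both stages. The log2 fold changes ranged from -0.12 (SE 0.0483, myoblasts at 6 h) to 0.06 (SE 0.0577, myoblasts at 1 h).

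Abhd5, which encodes the ATGL activator CGI-58, was higher in stretched cells at 3 h and 6 h by small but separate margins, and the groups overlapped at 1 h in both stages (0.03, SE 0.0324 and 0.04, SE 0.0391 on the log2 scale). At 6 h the myoblast libraries held 41.9, 43.9, 44 and 44.8 CPM without stretch and 47.1, 48, 48.3 and 50.4 CPM with it (log2 fold change 0.17, SE 0.0321). In differentiated cells at 6 h they held 42.9, 41.7, 41.7 and 43.1 CPM without stretch and 49.3, 47.2, 50.5 and 50.3 CPM with it (0.22, SE 0.0329). Every stretched library was above every non-stretched one in both stages, and the same held at 3 h with log2 fold changes of 0.13 (SE 0.0295) and 0.09 (SE 0.032). Other genes share 16.6% of the 31-base stretches of Abhd5, so its level depends in part on how Salmon divided reads.

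G0s2 encodes a small protein that binds ATGL and blocks it. In differentiated cells at 3 h it stood at 17.5, 17.2, 20.9 and 19.9 CPM without stretch and at 32.7, 26.9, 24.5 and 26 CPM with it. All stretched libraries were higher, with means of 18.9 CPM ± 1.83 and 27.6 CPM ± 3.59 (SD, n = 4) and a log2 fold change of 0.54 (SE 0.0928). The log2 ratio was 0.78 in experiment B25 and 0.31 in experiment B28.

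At 6 h the direction had turned. G0s2 was at 16.7, 16, 19.3 and 15.4 CPM in non-stretched differentiated cells and at 10.8, 12.9, 11.9 and 13.1 CPM in stretched ones, so that all 4 stretched libraries were lower (log2 fold change -0.47, SE 0.082). The log2 ratio was -0.47 in both experiments. At 1 h the groups overlapped (-0.01, SE 0.0816, and -0.04 without replicate 4), and in myoblasts they overlapped at all 3 times, with log2 fold changes between -0.11 and -0.02.

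Hilpda did not separate the groups at any time. The largest differences were 0.18 (SE 0.0856) in differentiated cells and 0.15 (SE 0.0578) in myoblasts, both at 3 h. At 6 h the values were -0.15 (SE 0.0733) in myoblasts and 0.04 (SE 0.0732) in differentiated cells.

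**Figure D2:**
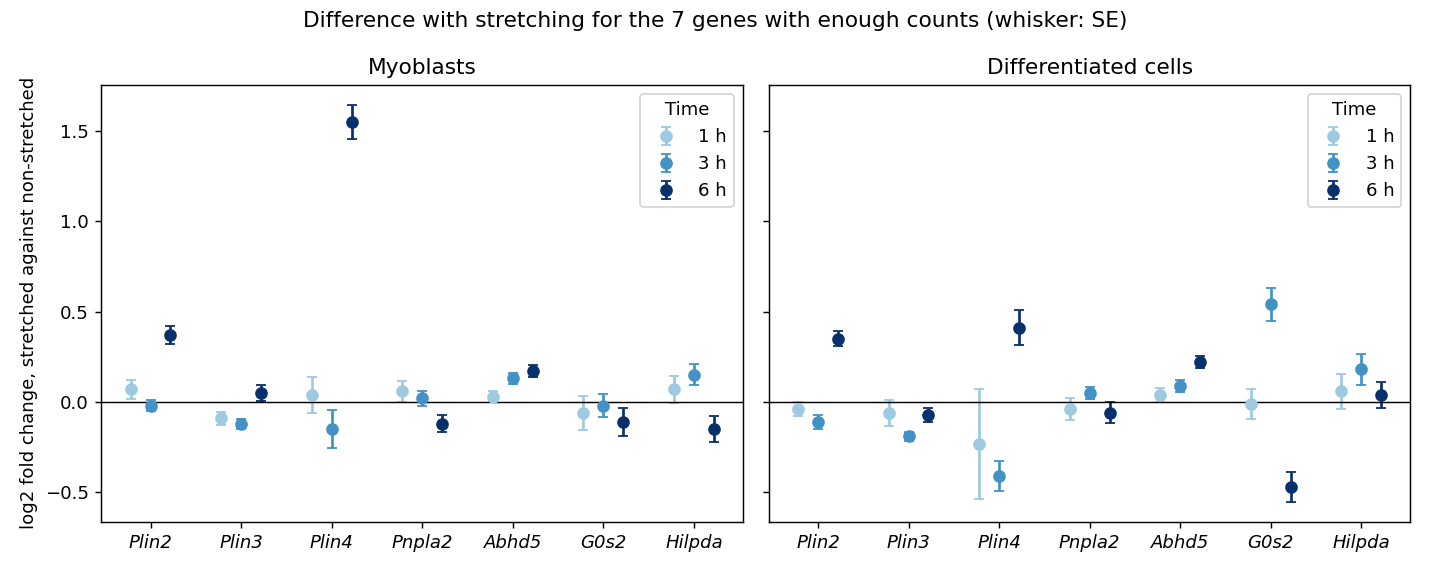
Log2 fold change of stretched against non-stretched cells (y axis) for 7 genes (x axis) after 1, 3 and 6 h (light to dark points) in myoblasts (left) and differentiated cells (right), with SE whiskers from 8 libraries each. Plin4 in myoblasts at 6 h (1.55) lies farthest from 0, and G0s2 in differentiated cells is at 0.54 at 3 h and -0.47 at 6 h.

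A gene was called when its edgeR adjusted p was under 0.05 and its log2 fold change was at least 0.58 in either direction. Only Plin4 in myoblasts at 6 h reached the fold-change limit among the 7 genes in the 6 comparisons of stretched with non-stretched cells. The adjusted p is not used for the 7 genes there, since these comparisons helped choose them. By both limits 2.17% of all genes tested were called in myoblasts at 6 h, and the share by fold change alone was not counted. The groups did not overlap for 1, 2 and 3 of the 7 genes in myoblasts at 1, 3 and 6 h, where this held for 13.3%, 30.8% and 28.7% of all genes. In differentiated cells they did not overlap for 0, 4 and 4 of the 7, against 6.37%, 25.9% and 26.4% of all genes. These are counts for genes chosen with the outcome known.

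Between the stages, the average over stretched and non-stretched cells holds libraries whose levels were known when the genes were chosen. It is given without a p, and the test is that of the non-stretched libraries alone. There all 7 genes had an edgeR adjusted p below 0.05, and G0s2 and Hilpda were called. The share of all genes in that fit was not counted, so these counts cannot be set against all genes and say nothing particular to the 7. In the fit of all 48 libraries, 51.7% of all 17044 genes tested were called. G0s2 rose from 4.02 to 5.83 CPM in the 24 myoblast libraries to 10.8 to 32.7 CPM in the 24 differentiated ones, with no overlap (log2 fold change 1.9, SE 0.0369, 3.74-fold). With the non-stretched libraries alone the value was 1.83 (SE 0.0498, edgeR adjusted p = 1.93e-21). Plin4 was 1.58-fold lower in differentiated cells (-0.66, SE 0.0677). That value includes the stretched libraries at 6 h, and with the non-stretched libraries alone it was -0.41 (SE 0.0613, edgeR adjusted p = 1.01e-06), below the limit on the fold change.

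The other differences between stages were smaller. Pnpla2 was higher in differentiated cells by 0.46 (SE 0.0229) and Plin3 by 0.32 (SE 0.0187), and Plin2 was lower (-0.44, SE 0.0186), as was Hilpda (-0.55, SE 0.033). Abhd5 differed by -0.06 (SE 0.0121), a change of under 5%. With non-stretched libraries alone the Abhd5 difference was -0.09 (SE 0.0178, edgeR adjusted p = 2.86e-05). Hilpda lay near the limit: with non-stretched libraries alone it was called (-0.61, edgeR adjusted p = 6.43e-13). No experiment holds both stages, so stage and experiment cannot be told apart.

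Per length of transcript, the order in non-stretched myoblasts was Plin2, Plin3 (23 CPM per kilobase ± 0.712), Abhd5 (13.7 ± 0.36), Pnpla2 (10.2 ± 0.423), Hilpda (9.78 ± 0.776), G0s2 (5.77 ± 0.442), Plin4 (1.11 ± 0.192) and Plin5 (SD, n = 12). Pnpla2 and Hilpda did not differ beyond their spread. In differentiated cells G0s2 moved up to follow Plin3, at 20.9 CPM per kilobase ± 2.25, ahead of Pnpla2 (14 ± 0.441) and Abhd5 (13.1 ± 0.376), whose libraries overlapped. Per length of the longest coding transcript, G0s2 thus stood below the lipase gene Pnpla2 in myoblasts and above it in differentiated cells. In CPM it was below Pnpla2 in both stages, at means of 5.03 against 26.8 and 18.2 against 36.7 in non-stretched cells. Hilpda, the other inhibitor gene, stood below Pnpla2 in differentiated cells (6.53 CPM per kilobase ± 0.463).

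**Figure D3:**
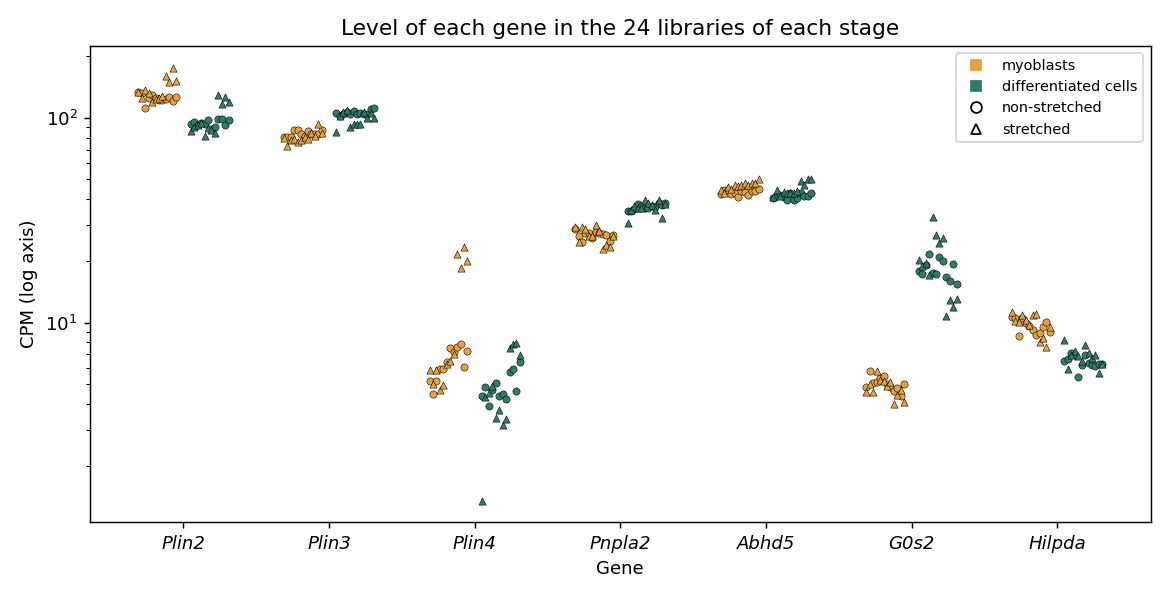
CPM on a log axis for 7 genes (x axis) in each of the 24 myoblast and 24 differentiated libraries (colours), with circles for non-stretched and triangles for stretched libraries. G0s2 does not overlap between the stages, at 4.02 to 5.83 and 10.8 to 32.7 CPM, and the 4 stretched myoblast libraries at 6 h stand above the rest for Plin4.

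Time in culture was compared as 6 h against 1 h. Averaged over stretched and non-stretched cells, only Plin4 of the 7 genes reached the limit on the fold change, in both stages. By both limits 2.03% of all genes were called in myoblasts and 2.32% in differentiated cells. That average holds the stretched libraries at 6 h, whose levels were known when the genes were chosen, so it is given without a p and the test is that of the non-stretched libraries alone.

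Plin4 was higher at 6 h in myoblasts by 1.23 on the log2 scale as an average (SE 0.0781, 2.35-fold). With non-stretched myoblasts alone it rose by 0.48 (SE 0.102, edgeR adjusted p = 0.0303), below the limit on the fold change, and those libraries went from 4.49 to 5.91 CPM at 1 h to 6.06 to 7.9 CPM at 6 h without overlap. In differentiated cells the average difference was 0.67 (SE 0.145) with replicate 4 at 1 h and 0.53 (SE 0.0668) without it, which is below the limit. With non-stretched differentiated cells alone it was 0.35 (SE 0.103, edgeR adjusted p = 0.131).

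For the 6 other genes the averages were smaller, and with non-stretched cells alone 0 of their 12 values over both stages had an edgeR adjusted p under 0.05 (1 had an unadjusted one, Pnpla2 in differentiated cells at 0.07). G0s2 had an average of -0.41 (SE 0.0672) in differentiated cells and of -0.17 (SE 0.0544) in myoblasts, and values of -0.18 (SE 0.0897, edgeR adjusted p = 0.401) and -0.14 (SE 0.0741, edgeR adjusted p = 0.408) in non-stretched cells. Plin2 had averages of 0.24 (SE 0.0278) in differentiated cells and 0.15 (SE 0.0348) in myoblasts. In non-stretched cells these were 0.04 (SE 0.0323, edgeR adjusted p = 0.579) and 0.00 (SE 0.0453, edgeR adjusted p = 0.984). Hilpda had an average of -0.21 (SE 0.0507) in myoblasts and a value of -0.1 (SE 0.0713, edgeR adjusted p = 0.563) in the non-stretched ones.

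Between the 2 main experiments of each stage, log2 differences of the 7 genes ran from -0.02 to 0.09 in myoblasts. In differentiated cells they ran from -0.06 to 0.07. In edgeR, 0 of the 7 genes were called between experiment B31 and experiment B27 in myoblasts, where 0.191% of genes were called, and 0 of 7 between B28 and B25 in differentiated cells, where 0.865% were. Of the 7, 2 had an unadjusted p under 0.05 in myoblasts, Abhd5 and Plin3, each at a log2 difference of 0.04, and 0 in differentiated cells. DESeq2 also called 0 of 7 in each stage.

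Plin2 and G0s2 moved in opposite directions across the 24 differentiated libraries, with the r farthest from 0 of all pairs of the 8 genes in this stage. Pearson's r of their log2 CPM was -0.91, a description over libraries that share their scaling factors. Once the mean of each group was removed it was -0.78, and Plin3 with Plin4 was then farther from 0, at 0.8. The stretched libraries at 3 h were lowest for Plin2 (81.2 to 89.5 CPM) and highest for G0s2 (24.5 to 32.7 CPM), apart from the library of experiment B17 and 1 non-stretched library that also lay in that range for Plin2. Those at 6 h were the reverse (117 to 130 and 10.8 to 13.1 CPM). In myoblasts r was -0.5, and 0.24 with group means removed.

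**Figure D4:**
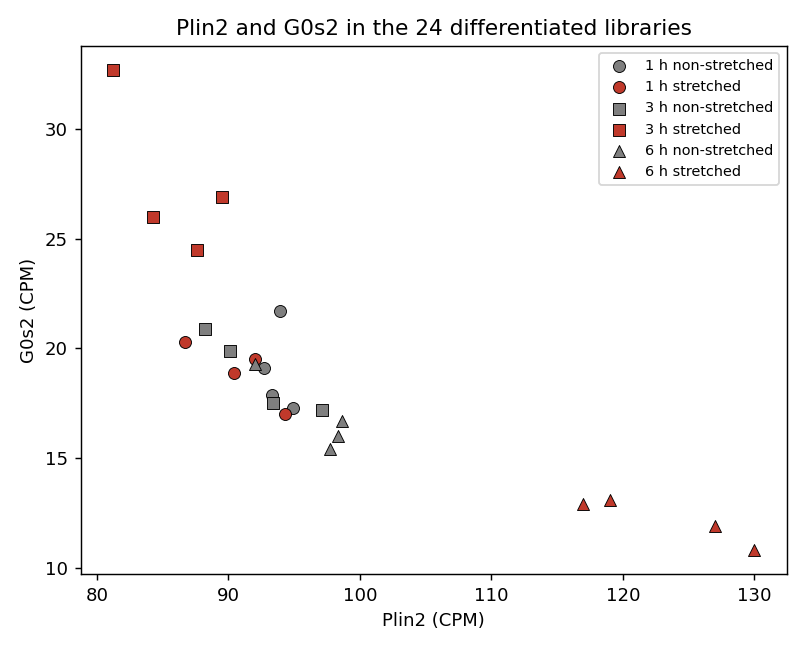
CPM of G0s2 (y axis) against CPM of Plin2 (x axis) in the 24 differentiated libraries, with circles, squares and triangles for 1, 3 and 6 h and red for stretched cells. Stretched libraries at 3 h sit at the upper left and those at 6 h at the lower right, with non-stretched libraries between them.

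Of 12054 genes with at least 1 CPM, those most like Plin4 across the 24 myoblast libraries were Slc36a1 (r = 0.965), Gnpda1 (0.964), Mvd (0.955), D6Wsu163e (0.952) and Aacs (0.948). Their 6 h log2 fold changes ran from 0.49 for Slc36a1, a lysosomal amino acid transporter, to 1.04 for Mvd, an enzyme of sterol synthesis. The genes most like G0s2 across the 24 differentiated libraries were Scml4 (r = 0.942), Plekhg5 (0.939), Dot1l (0.936), Mcrs1 (0.929) and Fmnl3 (0.918). Their log2 fold changes with stretching were 0.16 to 0.42 at 3 h and -0.45 to -0.09 at 6 h.

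Of 14 annotated genes within 100 kb of Plin4, 10 had enough counts and 0 were called by edgeR in any of the 6 comparisons, where 0.27% to 2.17% of all genes were called. In myoblasts at 6 h their log2 fold changes ran from -0.28 to 0.21. There 4 of the 10 had an edgeR adjusted p under 0.05, against 27.2% of all genes. By unadjusted p it was 6 of the 10, 2 of them higher and 4 lower, and the share of all genes was not counted. Of these, Mpnd and Hdgfl2 (listed as Hdgfrp2), each had a log2 fold change of -0.23 there, with edgeR adjusted p of 0.00166 and 0.000222.

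The other genes of lipid handling and the oxygen response were read from 6 lists with 121 genes besides the 8, of which 101 to 107 were tested. In myoblasts, edgeR called 1 of them at 1 h, 4 at 3 h and 4 at 6 h, against 1.25%, 1.71% and 2.17% of all genes. In differentiated cells it called 0 at 1 h (DESeq2 called 1), 2 at 3 h and 3 at 6 h, against 0.27%, 1.63% and 2.04% of all genes. At 1 h in differentiated cells 10 of the 107 tested had an unadjusted p under 0.05 in edgeR and 0 an adjusted one.

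In myoblasts the lipid genes called at 6 h were all higher. They were Slc27a1, a fatty acid transport protein (86.5 CPM ± 5.04 to 132 CPM ± 13.2, log2 fold change 0.63, SE 0.0644, edgeR adjusted p = 0.000111), and Lpin1, the phosphatidate phosphatase that makes diacylglycerol (0.6, SE 0.0721, edgeR adjusted p = 0.000271). Fabp3, a fatty acid binding protein (0.84, SE 0.229, edgeR adjusted p = 0.019), and the nuclear receptor gene Ppara (1.16, SE 0.264, edgeR adjusted p = 0.00767) rose from low levels of 0.907 and 0.143 CPM. Lpin1 had been lower at 1 h (-0.63, SE 0.0994, edgeR adjusted p = 0.00324).

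At 3 h the lipase gene Lipe, which acts on diacylglycerol after ATGL, fell in myoblasts from 3.09 CPM ± 0.102 to 1.92 CPM ± 0.0801 (-0.7, SE 0.088, edgeR adjusted p = 7.84e-05). Vldlr, a lipoprotein receptor (-0.6, SE 0.168, edgeR adjusted p = 0.0153), and Ehhadh, a peroxisomal oxidation enzyme (-0.91, SE 0.297, edgeR adjusted p = 0.0303), also fell. The hypoxia-inducible repressor gene Bhlhe40 rose (0.64, SE 0.0407, edgeR adjusted p = 7.92e-07).

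In differentiated cells Ucp3, a mitochondrial carrier and PPAR target, fell at 3 h (-0.99, SE 0.26, edgeR adjusted p = 0.0204) and at 6 h (-0.98, SE 0.246, edgeR adjusted p = 0.0167). At 6 h the hypoxia targets Ak4 (2.83 to 6.42 CPM, 1.18, SE 0.102, edgeR adjusted p = 0.000177) and Ankrd37 (0.87, SE 0.133, edgeR adjusted p = 0.00192) rose.

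The lists were also counted by adjusted p alone, without the limit on the fold change, and differences between lists were not tested. Of the 26 hypoxia-inducible factors and targets, 14 were higher and 0 lower in edgeR (17 and 0 by unadjusted p) in differentiated cells at 6 h, with a median of 0.182 against 0 for all genes, where 11.5% of all genes were higher. In myoblasts at 6 h, 12 of 25 tested were higher and 2 lower (14.1% of all genes were higher). At 3 h the 26 were divided evenly in myoblasts, with 7 higher and 7 lower (16% and 15.8% of all genes), and in differentiated cells 11 were higher and 1 lower (10.8% and 11.4% of all genes). Of the 20 genes of mitochondrial fatty acid oxidation, 0 were higher at 6 h in either stage by adjusted or unadjusted p, and 3 in myoblasts and 5 in differentiated cells were lower, where 13% and 10.8% of all genes were. Of the fatty acid uptake genes, 4 of 7 tested were higher in myoblasts and 4 of 8 in differentiated cells at 6 h, and 0 were lower (1 in each stage by unadjusted p). Of the triglyceride synthesis and droplet assembly genes, 8 of 22 were higher and 1 lower in myoblasts at 6 h, and 3 of 23 higher and 2 lower in differentiated cells. The PPAR factors and targets had 4 of 20 higher and 1 lower in myoblasts and 1 of 22 higher and 4 lower in differentiated cells, and the other lipases and droplet proteins 2 of 13 and 2 of 15 higher and 1 lower in each. The lists were chosen with earlier results of these data known.

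**Figure D5:**
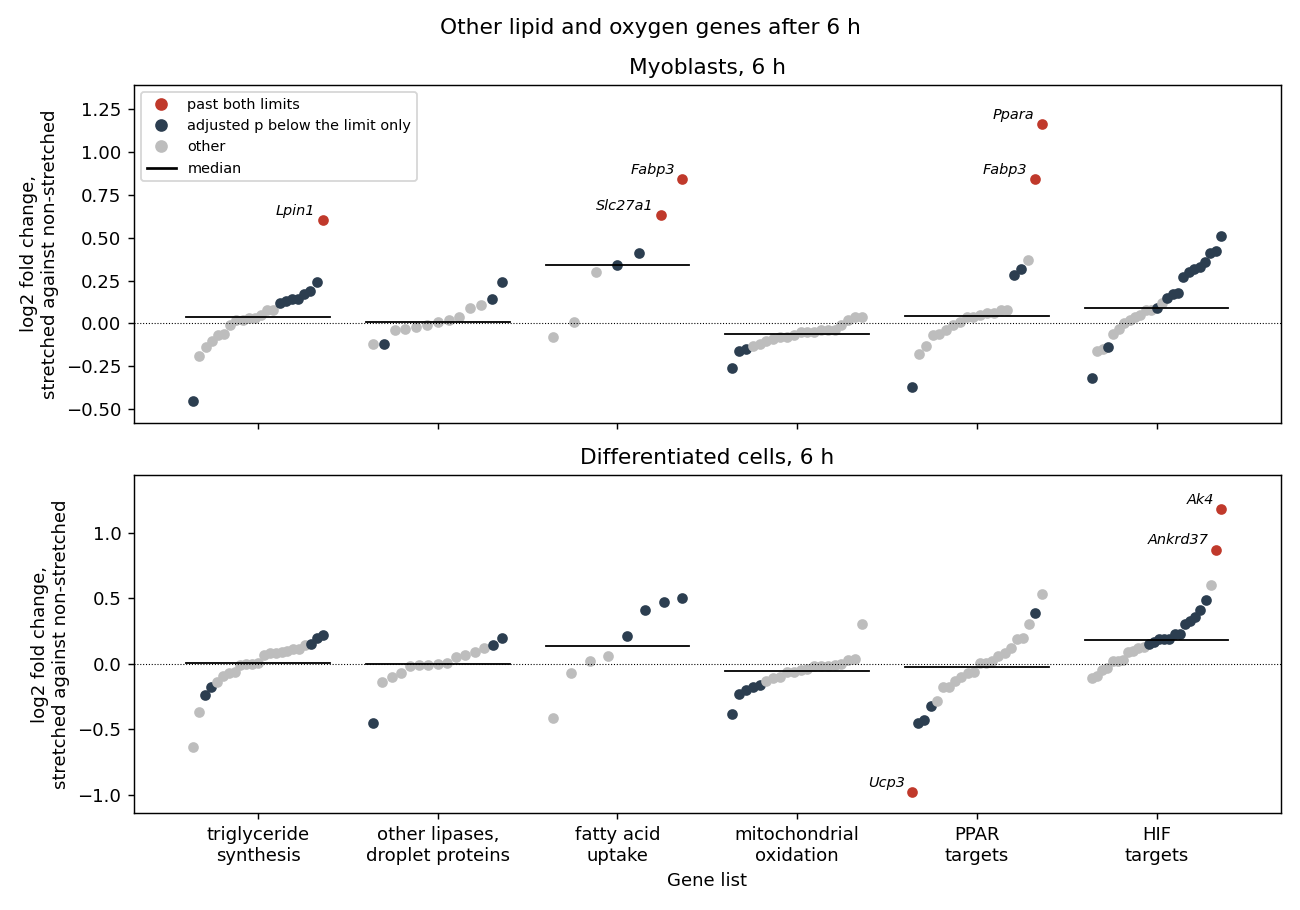
Log2 fold change of stretched against non-stretched cells at 6 h (y axis) for the tested genes of 6 lists (x axis, genes ordered by value within a list) in myoblasts (top) and differentiated cells (bottom), with red for genes past both limits, dark for an adjusted p under 0.05 only and a line at each list's median. Fabp3 belongs to 2 lists and is drawn in both, and the dark points of the hypoxia list in differentiated cells are all above 0.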

How the data were processed

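RNA was measured in 48 libraries of C2C12 cells. The authors aligned stranded paired-end reads to mm10 with STAR and quantified them with Salmon, and the deposited tables, 1 a stage, hold whole-number counts per gene symbol without normalization. The labels call the molecule nuclear RNA, while the methods describe an extraction of RNA with a Qiagen kit. All columns were used (0 left out).

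Labels gave each library its stage, its time and whether it was stretched. One myoblast library titled B231 has B31 in its column name and was counted with B31. The filterByExpr rule left out genes of low count, TMM scaled the libraries (factors 0.9502 to 1.049), and edgeR 4.0.16 in R 4.3.3 was run on the counts with the quasi-likelihood test and Benjamini-Hochberg adjustment over all genes tested. Stretched and non-stretched cells were compared in fits of 8 libraries, stages in 1 fit of 48, and times and experiments in fits of the 24 libraries of a stage (without the library of B17 for experiments). Since the stretched libraries helped choose the genes, p-values for stage and for time are those of the non-stretched libraries alone. These libraries were the other side of the same comparisons, so the p-values are not fully independent of the choice. A gene was called at an adjusted p under 0.05 where the log2 fold change also reached 0.58 in either direction. CPM values use TMM-scaled totals of all 48 libraries, log2 CPM a prior count of 1, and levels per kilobase the longest coding transcript. Within each of the 12 groups, no 2 libraries held identical counts. Same-numbered libraries did not deviate together (r from -0.05 to 0.156 over 23 pairs), so numbers were not used as pairs. The script was tested on simulated data.

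The 8 genes and the lists (1 listed symbol is not in the tables) were chosen with earlier results of these data known. Besides the 8, the text names, of the listed genes called in a comparison, at most the 4 with the largest change, genes within 100 kb of Plin4, and the 5 genes most like Plin4 or G0s2. The values of 1 called gene are not reported here. Annotation is GENCODE on mm10, upstream sequences are RefSeq on GRCm38.p6 (10 windows, all 8 genes matched), and Python 3 read both. Alternatives were DESeq2 1.42.0, RLE scaling, 2 other count filters, other sets of libraries, covariates and limits, and leaving out each library.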

Additional observations from a re-analysis of the deposited data

Results flagged for a closer look

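In 96 groups of 4 libraries (8 genes in 12 groups), 9 held a library far from the other 3, and chance alone flags about 5% of groups. One was Plin4 in differentiated cells stretched for 1 h, where replicate 4 of experiment B17 had 1.35 CPM and the others 4.34 to 4.9 CPM. Plin2 in non-stretched differentiated cells at 6 h was low in replicate 9 (92 CPM against 97.7 to 98.6). Plin3 was high in replicate 10 of non-stretched myoblasts at 1 h (86.8 CPM against 80.4 to 81) and at 6 h (87.5 CPM against 83.1 to 83.8), and low in replicate 7 of differentiated cells stretched for 3 h (90.4 CPM against 93.1 to 93.5). Hilpda was low in replicate 9 of non-stretched myoblasts at 1 h (8.57 CPM against 10.5 to 10.7). The remaining 3 were Plin5, at 0.0456, 0.0536 and 0.0362 CPM in single libraries, which is 2 or 3 counts.

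In differentiated cells 3 genes had all 4 stretched libraries on one side of the non-stretched mean at 3 h and on the other side at 6 h. The log2 fold change differed between 6 h and 3 h by 0.45 for Plin2, by 0.82 for Plin4 and by -1.02 for G0s2, and these differences were not tested.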

How the results depend on the processing

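All 630 alternative log2 fold changes of the 7 genes under stretching moved by less than the spread between replicates, although that of Plin4 in differentiated cells at 1 h ran from -0.38 to 0.05 when 1 library was left out. Of 1190 alternative values of the single-gene tests, 1149 kept their direction and were called, or not called, as before by both limits together, 7 were weaker, 11 stronger and 23 changed sign. Those that changed sign were all near 0: 0.00 for Plin2 in time with non-stretched myoblasts, 0.00 for Plin3 in time in differentiated cells with the replicate block or with experiment as a covariate, and, with 1 library left out, differences between experiments that ran from -0.03 to 0.01 for Plin2, from -0.04 to 0.00 for G0s2 and from -0.03 to 0.01 for Hilpda in myoblasts and from -0.01 to 0.02 for Pnpla2 in differentiated cells, and 0.00 for Pnpla2 with no filter. Of the 1149, 35 crossed the limit on the adjusted p alone (33 lost it, 2 gained it), 34 of them in time, and 8 of these with non-stretched libraries alone, where the adjusted p rose to as much as 0.949.

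Replicate numbers were shared between groups but did not pair the libraries (6 of 23 pairs had r over 0.1, and 8 libraries were closest to their own number). Over time, the average of stretched and non-stretched cells had 1 member at or past the fold-change limit in each stage, Plin4. In differentiated cells the replicate block took that count to 0, with Plin4 at 0.53. That count was also 0 with non-stretched libraries alone, with experiment as a covariate (Plin4 at 0.54) and without the library of B17, an alternative chosen after seeing the data, so leaving out 1 library gave 0 to 1. In myoblasts it was 0 with non-stretched libraries alone.

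Leaving out 1 library gave 123 to 197, 200 to 267 and 211 to 385 genes called in myoblasts at 1, 3 and 6 h and 9 to 87, 196 to 274 and 223 to 338 in differentiated cells (from 187, 253, 324, 42, 253 and 315), and 0 to 1, 2 to 5, 3 to 4, 0 to 1, 2 and 2 to 3 listed genes. The listed count at 1 h in myoblasts was 0 without non-stretched replicate 9, that at 3 h was 2 without stretched replicate 8 or 9, and that at 1 h in differentiated cells was 1 without stretched replicate 4 or 9. The lowest myoblast counts of all genes came without stretched replicate 9 at 1 h and 6 h, and at 1 h in differentiated cells 7 of the 8 libraries moved the count by over 1.5 times. Without the limit on the fold change 884, 4719, 4060, 103, 3443 and 3438 genes and 5, 40, 37, 0, 27 and 36 listed genes passed. At 1 h in differentiated cells DESeq2 called 98 genes, no filter 66, all 24 libraries in 1 model 126 and experiment as a covariate 66, with 1 listed gene under DESeq2 and under the model of 24 libraries. A minimum of 10 counts left 1 listed gene at 3 h in differentiated cells. The causes were not tested. Depth limits Plin5, and Ppara, Ehhadh and Ucp3 had libraries with under 10 counts.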
